A study of Mus musculus with 9 samples.

Results

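Among messenger RNAs of mouse white adipose tissue, 100 rows of a read count table were read more often on a high fat diet than on a normal diet, both with and without the ligand B-LGND2. They were chosen by their counts in all 9 libraries, from the 39130 rows of the table. Levels are given as CPM, the count divided by the total of its library and multiplied by 1000000. A row had to reach a mean of 5 CPM over the 9 libraries, which 15095 rows did. The ranges of the 2 high fat diet groups also had to overlap, which left 12698 rows. For each of these the lowest of the 6 high fat diet libraries was divided by the highest of the 3 normal diet libraries, after adding 0.1 CPM to both. The ratio was over 1 in 651 rows, or 5.13%, and the members are the 100 rows where it was largest. The rule therefore read every library, and the levels, differences and directions given below are a description of the chosen rows, without a test.

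The animals were male C57BL/6 mice, an inbred laboratory strain, fed and treated for 9 weeks, with 3 samples in each of 3 groups: a normal diet with vehicle, a high fat diet with vehicle, and a high fat diet with B-LGND2. The series title places B-LGND2 among ligands of estrogen receptor beta. A normal diet group with B-LGND2 is not among the libraries analysed here, so the ligand is seen only on the high fat diet. The libraries were made from poly(A) RNA and held 30067542 to 43129222 counts each. The labels do not tie a library to an animal, so the spread within a group may in part be technical. The dose and route of B-LGND2 are not given in what was used here. In whole tissue, fewer cells of a type and less RNA per cell cannot be told apart.

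White adipose tissue stores fat in adipocytes and releases fatty acids and hormones such as leptin and adiponectin. A high fat diet is known to enlarge adipocytes, to bring macrophages into the tissue and to alter its extracellular matrix. Estrogen receptor beta is a nuclear receptor that changes the transcription of its target genes when it binds a ligand.

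Each row carries only a GI number, which GenBank once used to identify a sequence record, with no gene symbol beside it. None could be matched to the reference tables used here, so no sequence, gene function or cell type marker is attached to a row here, and the labelled tissue was not checked against its markers. Only 2 rows are printed by number, the one with the largest ratio and the one with the highest mean CPM. CPM is not corrected for transcript length, so levels are compared within a row, not between rows. No member had another row in the table whose counts were within 5% of its own in every library, so none was repeated under a second number at that tolerance.

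The libraries did not group by their labels. Average-linkage clustering used the Pearson correlation of log2 CPM over the 15095 rows that reached the mean. Its tree was cut into 3 sets, a number that was chosen and not found by the clustering. The first held normal diet vehicle replicates 1 and 3, high fat diet vehicle replicate 1 and B-LGND2 replicate 2, which correlated at 0.877 to 0.983 over the 12698 rows. The second held normal diet vehicle replicate 2, high fat diet vehicle replicate 2 and B-LGND2 replicates 1 and 3, at 0.902 to 0.979. Between these sets the correlations were 0.625 to 0.842, and high fat diet vehicle replicate 3 stood alone, at 0.574 to 0.769 with the other 8 libraries. The sets are taken from the data and are not groups of the study, and rows are not independent replicates.

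Between the 2 sets of 4 libraries, 5907 of the 12698 rows, or 46.5%, did not overlap, 3190 higher in the first and 2717 in the second. Both sets hold libraries of each diet, so such a row cannot have all high fat diet libraries above all normal diet libraries, and 0 of the members are among them. The sets were made from the levels of these same rows, so the count of 5907 is no test of them. What sets these libraries apart was not tested. High fat diet vehicle replicate 3 was over 4 times every other library in 612 rows (4.82%) and under every other library by that much in 0. The members' median differences are given over all libraries, with 1 of the outlying libraries left out, and within each set.

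The largest ratio belonged to GI 8394540, at 3.31. It was at 2.86, 3.98 and 2.46 CPM in the normal diet libraries, at 13.4, 27.5 and 40.01 CPM in the vehicle libraries of the high fat diet, and at 33.7, 15.5 and 30.4 CPM with B-LGND2. The group means were 3.10 ± 0.79, 27.0 ± 13.3 and 26.5 ± 9.69 CPM (SD, n = 3 each). The 2 high fat diet groups covered nearly the same range, and the lowest of their 6 libraries was well above the normal diet. The mean log2 difference between the high fat diet groups and the normal diet was 2.99, or 7.94-fold, and that between B-LGND2 and vehicle was 0.03. The first was 2.81 without high fat diet vehicle replicate 3, the library with its highest value, and 3.18 without normal diet vehicle replicate 2. Within the high fat diet libraries the values still spread 2.99-fold. From the counts of the 2 libraries that set it, without the added 0.1 CPM, the ratio had a 95% interval of 2.75 to 4.13 (exact binomial). This interval covers counting error only, and not the spread between samples. PCR copies are not independent molecules, so it may be too narrow even for counting error. The 2 libraries are also the extremes that the rule read.

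The member with the highest mean was GI 31560077, at 228.4 CPM over the 9 libraries. It stood at 121.2, 99.7 and 123.8 CPM on the normal diet, 338.9, 175.9 and 177.0 CPM in the high fat diet vehicle group, and 268.5, 431.6 and 319.1 CPM with B-LGND2. Its group means were 114.9 ± 13.2, 230.6 ± 93.8 and 339.7 ± 83.5 CPM (SD, n = 3 each). Here the normal diet libraries were close together, while 2 of the 3 vehicle libraries on the high fat diet lay nearer to them than any B-LGND2 library did. The log2 difference from the normal diet was 0.94 with vehicle and 1.54 with B-LGND2. For both high fat diet groups together it was 1.24, with 1.32 when high fat diet vehicle replicate 3 was left out and 1.14 when normal diet vehicle replicate 2 was. Its ratio of 1.42 ranked 39 among the members.

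**Figure D1:**
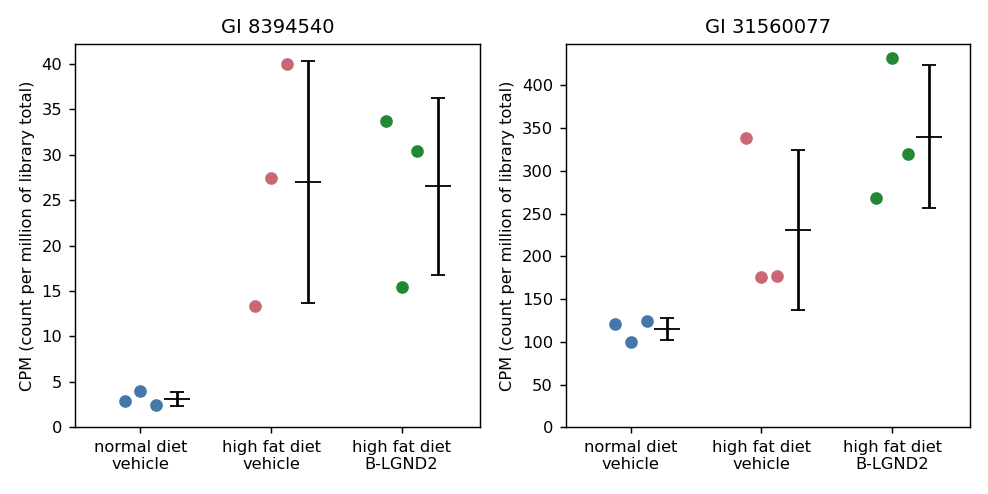
CPM of GI 8394540 (left) and GI 31560077 (right) in each library (points) by group, with the group mean and SD (n = 3) beside them in black. In GI 8394540 the normal diet libraries lie between 2.46 and 3.98 CPM and both high fat diet groups start above 13 CPM. In GI 31560077 the highest normal diet library is at 123.8 CPM and the lowest high fat diet library at 175.9 CPM.

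A few further rows show how the members differ from each other, and were picked after their values had been seen. The row ranked 2 had a ratio of 2.53 and was at 8.74, 20.4 and 13.6 CPM on the normal diet. It was at 86.3, 204.8 and 69.6 CPM in the high fat diet vehicle group and at 80.9, 82.2 and 51.8 CPM with B-LGND2, so 1 vehicle library stood at 2.37 times the next highest. The row ranked 3, with a ratio of 2.52, was almost constant on the normal diet, at 3.18, 3.07 and 3.07 CPM. Its high fat diet values were 13.4, 8.18 and 11.8 CPM with vehicle and 10.2, 20.2 and 10.04 CPM with B-LGND2.

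The row ranked 10 is the most uneven member. Its normal diet values were 0.594, 0.285 and 0.685 CPM, and its high fat diet values were 1.27, 71.02 and 4.32 CPM with vehicle and 6.60, 4.31 and 1.81 CPM with B-LGND2. The highest high fat diet library was thus 55.7 times the lowest. Its lowest high fat diet library held 43 reads and its highest normal diet library 27. Its ratio was 1.75, and the counting interval, taken without the added 0.1 CPM, was 1.12 to 3.13.

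Ratios fell off quickly behind the leading rows. They exceeded 2 in 4 members and 1.5 in 24, and the median was 1.36. The row ranked 99 had a ratio of 1.257, and the row ranked 100 one of 1.2532. The first row left out, ranked 101, also had 1.2532, and the next 1.2529, so the last members are hardly separated from the rows behind them. The row ranked 100 had a highest normal diet value of 10.4 CPM and a lowest high fat diet value of 13.1 CPM, while the row ranked 101 had 4.43 and 5.57 CPM. The interval from the counts of the 2 limiting libraries, without the added 0.1 CPM, included 1 in 4 members. The ratios were chosen for their size, so nothing is read from the other 96.

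The members were mostly rows of modest read number. Their mean CPM ran from 5.04 to 228.4 with a median of 11.2, against 24.1 for all 12698 rows that met the mean and overlap conditions. The mean was under 10 CPM in 46 members and above 50 CPM in 5. Single values ranged from 9 to 13763 reads, with a median of 365.5. Together the 100 rows took 0.0918%, 0.106% and 0.0888% of all counts in the normal diet libraries. They took 0.219%, 0.219% and 0.331% in the high fat diet vehicle group, and 0.224%, 0.258% and 0.226% with B-LGND2. Their joint share was thus about as large in the B-LGND2 libraries as in the first 2 vehicle libraries, and highest in high fat diet vehicle replicate 3.

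Over the members, the median log2 difference of the 2 high fat diet groups from the normal diet was 1.17, or 2.25-fold, with quartiles of 0.90 and 1.51 and a range from 0.63 to 3.18. It was 1.31 for vehicle and 1.04 for B-LGND2, each against the same normal diet libraries. Over all 12698 rows the corresponding medians were 0.18, 0.18 and 0.18. Except for fitted values and where another added value is named, log2 differences are between means of log2(CPM + 0.1). Those of the lowest rows are thus understated. By construction every member was higher in each high fat diet library than in each normal diet library.

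**Figure D2:**
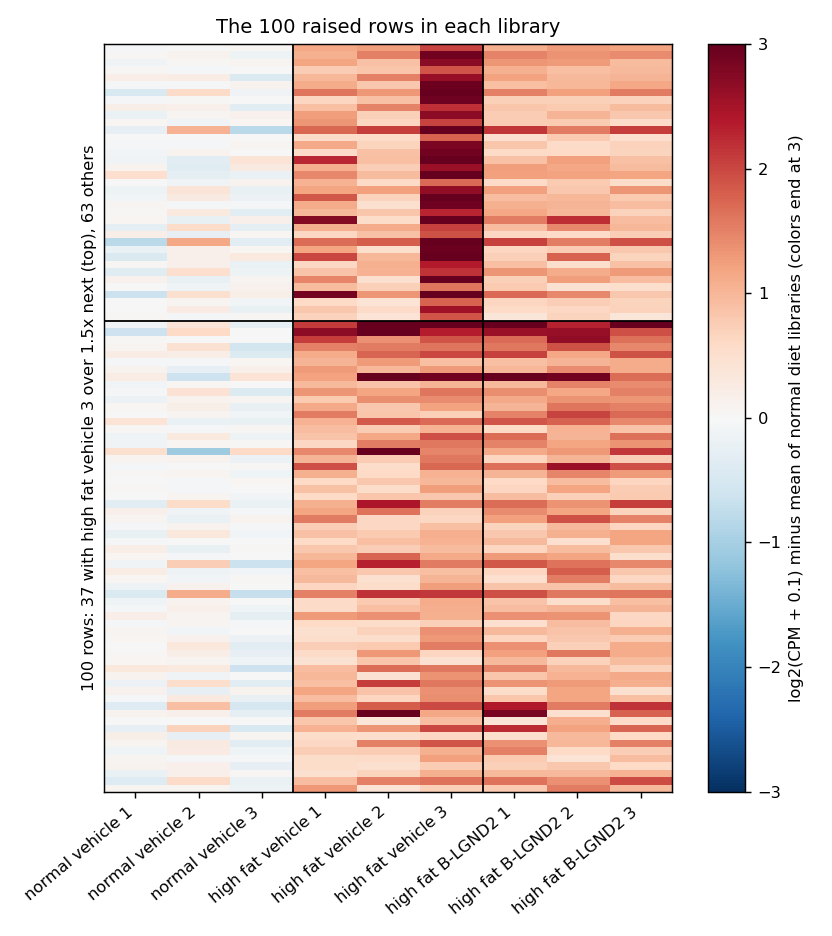
Each of the 100 rows (vertical) in each of the 9 libraries (horizontal), as log2(CPM + 0.1) minus the row's mean over the normal diet libraries; red is higher, and colors end at 3. In the 37 rows above the horizontal line, high fat diet vehicle replicate 3 exceeds the next highest library by more than 1.5 times; the 63 below are the other members, 22 of which also have their highest value in that library.

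The rise above the normal diet depended on how libraries were scaled. By library total, the median of all 12698 rows lay 0.05 to 0.30 above the normal diet mean on the log2 scale in the 6 high fat diet libraries. A scaling by trimmed means of log ratios (TMM), which lines libraries up on rows that differ least, moved these medians to between -0.10 and 0.05. The members' median difference fell with it, from 1.17 to 0.96, and stayed above 0 in every member, with 0.43 as the lowest value. Of the 100 members, 90 kept a ratio over 1 on TMM-scaled CPM, and 84 also met the mean and overlap conditions on that scale. The balance over all rows turned around: by library total, 651 rows were higher in every high fat diet library and 79 higher in every normal diet library, so 89.2% were of the first kind. With TMM there were 164 and 510, or 24.3%. GI 8394540 kept a ratio of 2.54 and GI 31560077 one of 1.14.

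**Figure D3:**
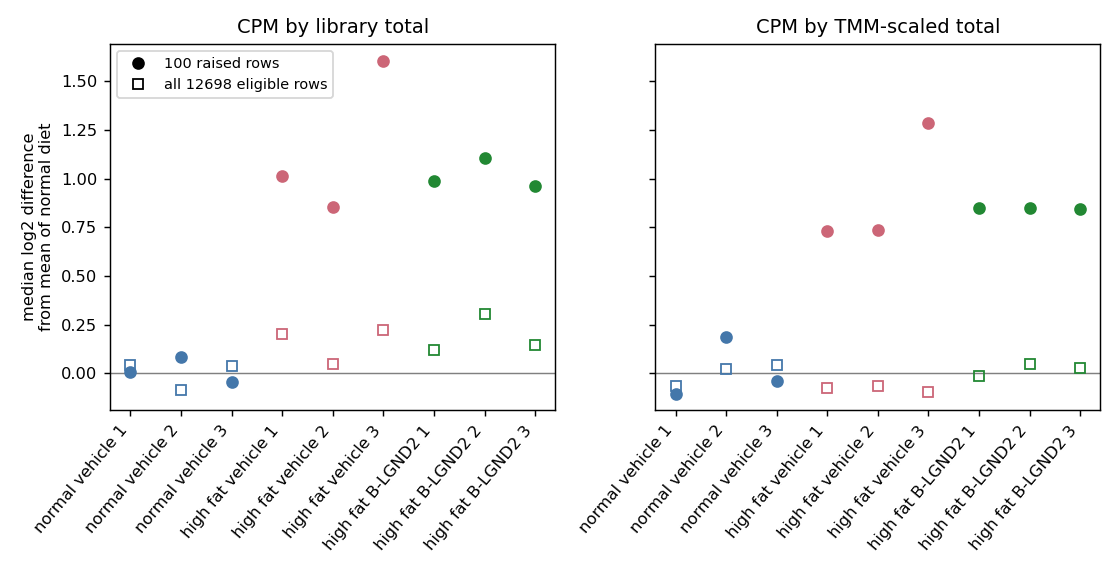
Median log2 difference from the mean of the normal diet libraries, in each library, for the 100 rows (filled circles) and for all 12698 rows that met the mean and overlap conditions (open squares), with CPM by library total (left) and by TMM-scaled total (right); colors mark the 3 groups. On the left the open squares of the high fat diet libraries lie above 0, by up to 0.30, and on the right they lie between -0.10 and 0.05, while the filled circles stay above 0.7 in every high fat diet library.

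Library by library, the members' median level was 5.82, 6.07 and 5.26 CPM on the normal diet. It was 12.0, 12.3 and 23.1 CPM in the high fat diet vehicle group and 11.5, 12.5 and 11.4 CPM with B-LGND2. The 3 B-LGND2 libraries were nearly alike, and vehicle replicate 3 was about as far above the other vehicle libraries as those were above the normal diet. The median coefficient of variation of the members was 13.7% in the normal diet group, 34.4% in the high fat diet vehicle group and 14.8% in the B-LGND2 group. Over all 12698 rows it was 29.8%, 30.5% and 19.1%. The rule read the highest of the 3 normal diet libraries and the lowest of the 6 high fat diet libraries. It also asked for overlapping high fat diet ranges, so the spread within each group is not independent of it. Without replicate 3 the members' coefficient of variation in the high fat diet vehicle group was 16.3%.

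High fat diet vehicle replicate 3 was the highest of the 6 high fat diet libraries in 59 of the 100 members, against 29.3% of all 12698 rows. In 7 members it was over 4 times every other library, against 4.82% of all rows. In 37 members it exceeded 1.5 times the next highest library, against 14.9% of all rows. The other 5 high fat diet libraries stood out in this way in 0 to 4 members each, against 0.06% to 1.54% of all rows. The rule read the lowest of the 6 libraries and admits no row that fails to overlap between the 2 library sets. The members' shares are thus not independent of it, and nothing is read from their distance to those of all rows. In these 37 rows the median level was 33.4 CPM in vehicle replicate 3. It was 9.93 and 8.85 CPM in vehicle replicates 1 and 2, and 9.12, 8.81 and 8.95 CPM with B-LGND2. The normal diet libraries were at 4.53, 4.58 and 4.16 CPM. The medians of the other 5 high fat diet libraries were thus close to each other, although single rows were uneven. The row ranked 67 was at 8.95 and 1.85 CPM in vehicle replicates 1 and 2, and at 3.77, 6.11 and 2.46 CPM with B-LGND2. That vehicle replicate 3 lay above the others follows from how the 37 rows were picked. The depth of vehicle replicate 3 was the lowest of the 9, at 30067542 counts, and its part in the pattern was not tested.

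The 63 remaining members had medians of 6.42, 7.08 and 5.76 CPM on the normal diet and of 12.3, 15.01 and 15.5 CPM with vehicle on the high fat diet. With B-LGND2 they were at 15.5, 14.5 and 15.8 CPM. The medians of the 6 high fat diet libraries were close to each other here, although single rows were uneven, such as the row ranked 10, and 22 of the 63 also had their highest value in vehicle replicate 3.

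The ligand comparison on the high fat diet is narrowed by the rule, which asked for overlapping ranges. The median log2 difference of B-LGND2 from vehicle over the members was -0.07, with quartiles of -0.51 and 0.08 and a range from -1.88 to 0.71. Over all 12698 rows the median was -0.03. With TMM-scaled CPM the members' median was -0.01 and that of all 12698 rows 0.03, so the latter changed sign with the scaling. By library total, B-LGND2 was within 1.5-fold of vehicle in 74 members, under it by more in 23 and above it by more in 3. Of all rows, 79.6%, 16.0% and 4.32% fell in these classes. Without vehicle replicate 3 the members' median was 0.09, with 93 members within 1.5-fold, 6 under and 1 above. Over all 12698 rows the median was then 0.02, and 84.4%, 10.3% and 5.33% of the rows fell in these classes. The direction of this median thus turned with 1 library. Against the normal diet, leaving that library out lowered the members' vehicle median from 1.31 to 0.98, which is below the 1.04 of B-LGND2. In the 37 rows that peaked in replicate 3, the median log2 difference of B-LGND2 from vehicle was -0.59 with that library and -0.06 without it. In the other 63 rows it was 0.06 and 0.18.

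Within any subset of the libraries the members' difference from the normal diet is above 0 by the rule, so the sets of resembling libraries are compared here by size alone. In the first set, with 2 normal diet and 2 high fat diet libraries, the members' median log2 difference of the high fat diet groups from the normal diet was 1.10, with 1.07 for vehicle and 1.13 for B-LGND2. In the second, with 1 normal diet and 3 high fat diet libraries, it was 0.88, with 0.82 for vehicle and 0.90 for B-LGND2. The medians of all 12698 rows were 0.25 and 0.17 in the 2 sets. The members' median difference of B-LGND2 from vehicle was 0.11 in the first set and 0.07 in the second, where all rows had 0.08 and 0.01. Neither set holds high fat diet vehicle replicate 3, and the members' value over all libraries but that one was 0.09. Each of these values rests on 1 or 2 libraries a group and has no test.

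Normal diet vehicle replicate 2 weighed most on which rows were chosen. It was the highest of the normal diet libraries in 56 members, replicate 1 in 23 and replicate 3 in 21, where over all 12698 rows it was highest in 41.2%. Over the 100 members it correlated at 0.924 and 0.917 with the other 2 normal diet libraries, against 0.678 and 0.646 over all 12698 rows. The rule admits no row that fails to overlap between the 2 library sets, so nothing is read from these higher correlations. Normal diet vehicle replicate 2 is the 1 normal diet library of the second set described above. Without it 3735 rows, in place of 651, had a ratio over 1, and 1757, in place of 79, were higher in all normal diet libraries. Only 6 of the 100 members were then still among the 100 largest ratios. The members' own difference from the normal diet hardly moved, with a median of 1.18 without that library. Leaving out any other library kept 57 to 92 of the members among the first 100.

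**Figure D4:**
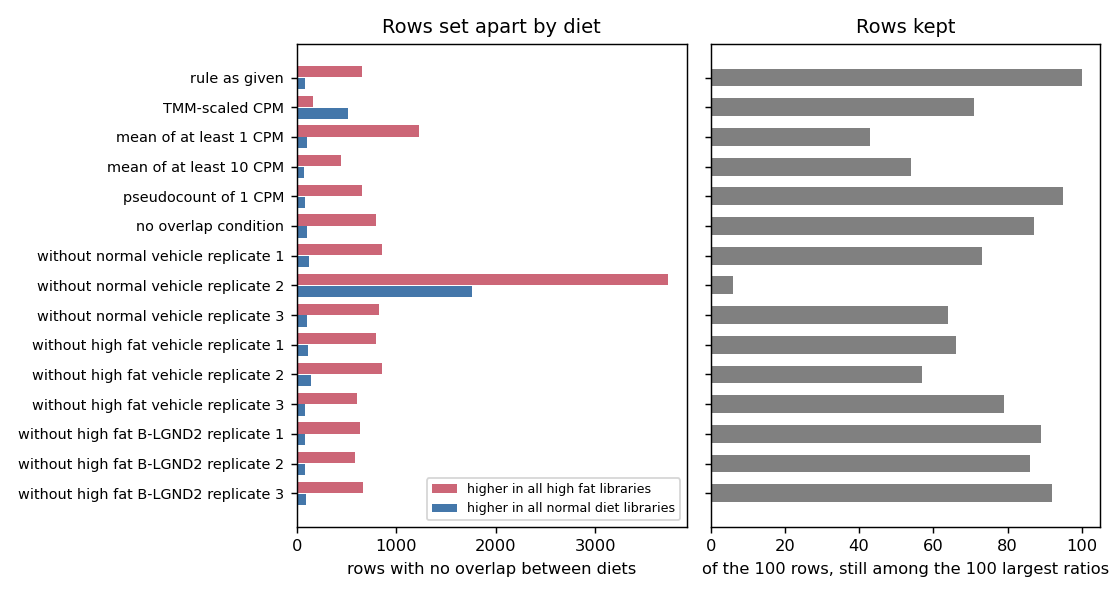
Left, the number of rows higher in all high fat diet libraries (red) and in all normal diet libraries (blue) under the rule as given and under each changed setting; right, how many of the 100 rows stay among the 100 largest ratios. With TMM the blue bar, at 510, is longer than the red one, at 164, and without normal diet vehicle replicate 2 the red bar reaches 3735 while 6 rows are kept.

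A model was fitted over all 9 libraries (limma-voom, two-sided, Benjamini-Hochberg over 28831 tested rows, which hold all 100 members). It called 0 members higher in the 2 high fat diet groups together than on the normal diet, where 0% of all rows were called higher. At an unadjusted p under 0.05, 1430 rows were higher, and limma-trend called 0 rows higher as well. The members' fitted log2 differences ran from 0.43 to 3.13, with a median of 0.98 and a median SE of 0.29, against a median of 0.07 over all tested rows. Both single comparisons with the normal diet, vehicle and B-LGND2, likewise called 0 rows higher (limma-voom), with 1240 and 1593 higher at an unadjusted p under 0.05. B-LGND2 against vehicle called 0 rows in either direction in limma-voom, with 1498 at an unadjusted p under 0.05. Among 28831 rows many pass that threshold without any difference, so nothing is read from the unadjusted counts. Without normal diet vehicle replicate 2, limma-voom called 17 members higher in the 2 high fat diet groups together, among 497 called rows or 1.66% of those tested. With library quality weights it called 88 members higher, among 3907 rows or 13.6%. With the library set as a term, which leaves out high fat diet vehicle replicate 3, it called 1 member higher, and no other row, among 29354 tested (0.00341%). That fit was added after the data were seen. As the rule read the same contrast, nothing is read from these counts of members.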

How the data were processed

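Per the labels' protocols, poly(A) RNA of white adipose tissue was sequenced by Ion Torrent Proton. Among the submitters' processing notes are STAR 2.5.2 and mm9, without a stated role. How reads were assigned to rows, with or without strand, is not given in the sources at hand, so overlapping, antisense and near-identical sequences are uncertain. The authors deposited whole-number read counts per GI number in 1 table, whose 9 columns carry the sample numbers of the labels' titles. The automatic check of units could not read these columns, so the counts were inspected directly, and the negative binomial test planned as the main one gave way to limma-voom (limma 3.58.1, R 4.3.3).

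Rows entered the fit if 3 or more libraries reached the CPM that 10 counts make in the median library, and if their counts summed to 15 or more; 10299 rows did not. It used TMM scaling (trims of 0.3 and 0.05), a mean for each group and a threshold of 0.05 on adjusted p. It was tested on simulated counts, drawn independently with the same spread setting for every row. The simulated libraries had no sets and no outlying library, so how the fit performs with these was not tested. Figures came from matplotlib 3.10.9. The rows printed by number are the member with the largest ratio and that with the highest mean CPM. The members, the rule and the lists were chosen with earlier results of these data known. The gene and marker lists could not be applied without gene names and were not analysed here. Alternatives changed the scaling, the filter, the pseudocount, the overlap condition, the spread model and the libraries; limma-trend and the library sets (average linkage over rows of at least 5 CPM on average, as a term of the model) were added after the data were seen.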

Additional observations from a re-analysis of the deposited data

How the results depend on the processing

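The number of rows with a ratio over 1 was 651 by the rule, 164 with TMM-scaled CPM and 1230 with a mean of at least 1 CPM; it lay between 585 and 3735 when each library was left out, the highest without normal diet vehicle replicate 2. Of the 100 members, 43 stayed among the 100 largest ratios with a mean of at least 1 CPM and 54 with at least 10 CPM, where rows enter or leave by the filter itself, and 6 to 92 when each library was left out. The members' median log2 difference between both high fat diet groups and the normal diet lay between 0.96 and 1.24 with TMM, with a pseudocount of 1 CPM and with each library left out, and at 0.88 within the second library set. That between B-LGND2 and vehicle lay between -0.29 and 0.09 with TMM, with a pseudocount of 1 CPM and with each library left out. Among these alternatives it was above 0 only without high fat diet vehicle replicate 3. Within the first and second library sets, which also lack that library, it was 0.11 and 0.07.

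Limma-voom called 0 rows higher in each comparison with the normal diet, where lower rows were not counted. For B-LGND2 against vehicle it called 0 rows in either direction. With library quality weights it called 3907 rows higher for both high fat diet groups and 6454 higher for B-LGND2, each against the normal diet, and 2 rows for B-LGND2 against vehicle. The latter comparison gave 1 row with scaling by total counts alone and 1 with the filter of 5 CPM on average. With the library set as a term it called 1 row higher for both high fat diet groups and 7 higher for B-LGND2, each against the normal diet. For B-LGND2 against vehicle it called 3 rows. When libraries were left out singly, 0 to 497 rows were higher for both high fat diet groups than on the normal diet, 0 to 63 for vehicle and 0 to 738 for B-LGND2, and 0 to 8 differed between B-LGND2 and vehicle. Each highest count came without normal diet vehicle replicate 2. For all of these the cause was not tested. The alternatives that use negative binomial models were not run. No paired analysis was possible because the labels pair no libraries.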
